A study of Mus musculus with 32 samples.

Results

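The *Ugt1a* genes encode UDP-glucuronosyltransferases, and 7 of them were followed in the kidney cortex transcriptome of Alport mice: *Ugt1a1*, *Ugt1a2*, *Ugt1a6a*, *Ugt1a6b*, *Ugt1a7c*, *Ugt1a9* and *Ugt1a10*. They are 7 of 32544 gene symbols in the count table, and they were chosen by symbol alone. The family itself was put forward after its responses to sex, genotype and nicotinamide riboside (NR) had been seen in these same libraries. Its levels and fold changes are therefore descriptions of a family selected on them, and the p-values given below are not independent support for its direction.

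UDP-glucuronosyltransferases sit in the endoplasmic reticulum and join glucuronic acid from UDP-glucuronate to bilirubin, steroids, phenols and drugs, which makes these compounds soluble and ready for export. Each *Ugt1a* enzyme has its own first exon and promoter, and all of them share the remaining exons, so the first exon sets the substrate site while the tail that binds UDP-glucuronate is common. UGT1A1 is the enzyme of bilirubin conjugation, and UGT1A6 enzymes act mainly on small phenols. In the kidney the family is a feature of the proximal tubule.

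Kidney cortex RNA came from 32 mice of 25 weeks on the C57BL/6J-Col4a3tm1Dec background, 4 in each combination of sex, genotype and treatment. Control mice were heterozygous (Col4a3+/-) and Alport mice were homozygous (Col4a3-/-) for the same allele, so the controls also carry 1 copy of it. *Col4a3* encodes a collagen IV chain of the glomerular basement membrane. All mice ate grain-based chow at first. At 10 weeks of age they went onto a purified diet, which held NR at 0.5% w/w for the NR-treated mice and no addition for the others, called vehicle-treated here. NR is a form of vitamin B3 from which cells make NAD+. Libraries were made from cortex as a whole, with 1 library per mouse.

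Libraries held 16621944–27778797 counts with a median of 22071395. Levels are given as CPM, the count scaled to the library total, after TMM scaling, which adjusts for differences in library composition. *Col4a3* lay at 140–201 CPM in the 8 vehicle-treated controls and at 48.8–83.2 CPM in the 16 Alport mice. In NR-treated male controls it lay at 59.3, 94.0, 75.2 and 160 CPM, so the libraries labelled NR-treated male control replicates 1 and 3 fell within the range of the Alport mice. Counts per gene cannot show whether reads came from the deleted exons, so this is a limited check of the labels. Summed fibroblast markers separated this group from Alport mice, since NR-treated male controls held 118–178 CPM and Alport mice 277–1345 CPM. Of the single fibroblast markers, *Col1a1*, *Col1a2* and *Pdgfrb* did so too, while *Dcn* and *Acta2* overlapped. Summed immune markers of NR-treated male controls (29.7–51.4 CPM) lay below those of male Alport mice (64.7 CPM or more). They overlapped those of NR-treated female Alport mice (35.3–187.5 CPM). *Ugt1a* genes that passed with this group are given below with and without these 2 libraries, and other genes with all 4 mice. The defining markers of proximal tubule were detected in all 32 mice. Of the intestine markers, *Alpi* was at 0 in all 32 mice, *Fabp2* in 29 and *Muc2* in 4. *Lgr5* (0.260–2.14 CPM) and *Vil1* (103–274 CPM), of the same list, were detected in all 32.

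The 7 genes lie on the forward strand of chromosome 1 in GRCm38 (mm10). Their own first exons follow each other from *Ugt1a10* (chr1:88055411-88056336) through *Ugt1a9* (chr1:88070800-88071678), *Ugt1a7c* (chr1:88095064-88095978), *Ugt1a6b* (chr1:88106862-88107799), *Ugt1a6a* (chr1:88138378-88139331) and *Ugt1a2* (chr1:88200601-88201500) to *Ugt1a1* (chr1:88211959-88212871). The map of the locus shows all of them joined to the same 4 exons, which start at 88215044, 88215795, 88216138 and 88218127. The sequences below are shown because they are the point at which a read can tie the shared exons to 1 gene. Each has the last 15 bases of the first exon in lower case and the first 15 bases of the shared exon in capitals, read 5′ to 3′ from the GENCODE transcripts.
*Ugt1a10*: aagccactttccaagGAATTTGAAGCCTAT
*Ugt1a9*: aagtcactttccaagGAATTTGAAGCCTAT
*Ugt1a7c*: aagccactttccaagGAATTTGAAGCCTAT
*Ugt1a6b*: ggaaagctgactcagGAATTTGAAGCCTAT
*Ugt1a6a*: ggaaagctgactcagGAATTTGAAGCCTAT
*Ugt1a2*: aagcccctctctcagGAATTTGAAGCCTAT
*Ugt1a1*: aagcccctatcccagGAATTTGAAGCCTAT

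The capitals were the same in all 7 sequences. *Ugt1a6a* and *Ugt1a6b* were also the same in all 15 bases before the junction, and so were *Ugt1a7c* and *Ugt1a10*. Over whole first exons, *Ugt1a6a* and *Ugt1a6b* were 95.1% identical, *Ugt1a9* and *Ugt1a10* 87.1%, *Ugt1a7c* and *Ugt1a10* 78.9%, and *Ugt1a7c* and *Ugt1a9* 78.3%.

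**Figure D1:**
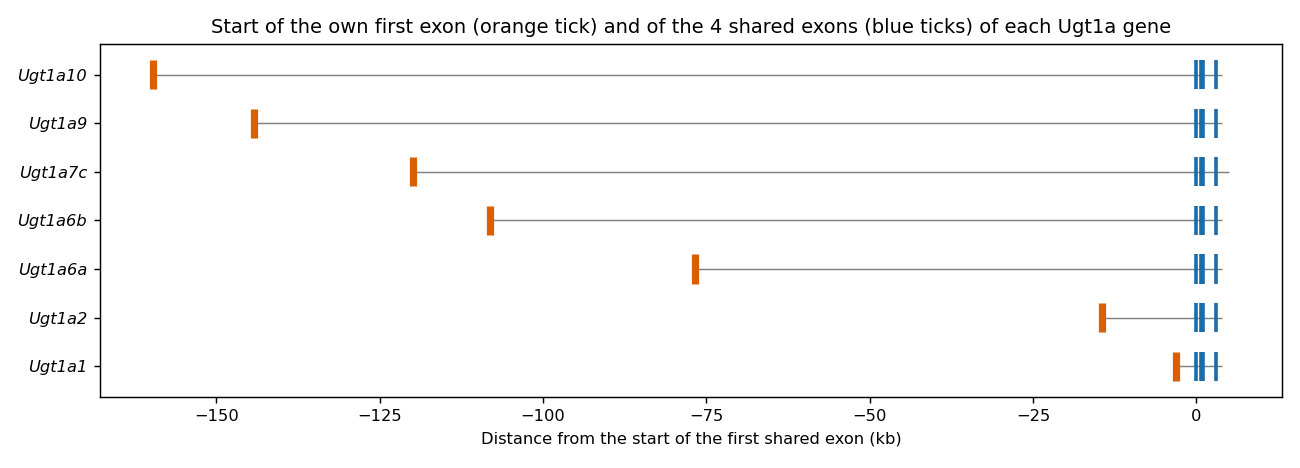
Ticks mark the start of the own first exon (orange) and of the 4 shared exons (blue) of the 7 *Ugt1a* genes, as distance in kb from the start of the first shared exon. The first exons lie apart from each other, and all lines end in the same 4 exons.

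How reads of the shared exons were assigned to the 7 rows is not given in the sources used here, and it bears on every value. The shared exons made up 57.9–59.9% of the transcript in 6 members and 71.7% in *Ugt1a7c*, whose annotated last exon is longer. Of all stretches of 31 bases in a transcript, 41.5% occurred in no other *Ugt1a* gene for *Ugt1a1*, 35.2% for *Ugt1a2*, 33.0% for *Ugt1a10*, 33.2% for *Ugt1a9*, 16.8% for *Ugt1a6b* and 2.2% for *Ugt1a6a*. A second annotated transcript of *Ugt1a7c* holds 859 bases of the first exon of *Ugt1a6a*. *Ugt1a7c* had 57.1%, of which 998 of 1829 stretches came from the longer end that the annotation gives to it alone. The values of *Ugt1a6a*, *Ugt1a6b* and *Ugt1a7c* are therefore the least certain as single rows. All 7 members passed the low-count filter in every comparison, whereas *Ugt1a5* and *Ugt1a8*, the other genes of the cluster, held 0.045% and 0.0561% of its counts.

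*Ugt1a2* and *Ugt1a10* made up most of the family. *Ugt1a10* led in the 4 male groups and *Ugt1a2* in 3 of 4 female groups, with counts divided by transcript length to compare genes. In vehicle-treated female controls *Ugt1a2* took 79.1% ± 1.03 (SD, n = 4) of the family per length and *Ugt1a10* 13.6% ± 1.87. In vehicle-treated male controls *Ugt1a2* took 2.43% ± 0.745, *Ugt1a10* 58.8% ± 14.2 and *Ugt1a7c* 26.3% ± 15.7. In NR-treated female Alport mice *Ugt1a10* (46.3%) and *Ugt1a2* (44.2%) were close. *Ugt1a1* held 1.53–3.99% per length in the 8 group means, and *Ugt1a9* was lowest in all 8 with 0.0894–1.44%. The shares of *Ugt1a6a* and *Ugt1a6b* overlapped in the 4 male groups and in both groups of female Alport mice, and *Ugt1a6a* was higher without overlap in both groups of female controls.

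**Figure D2:**
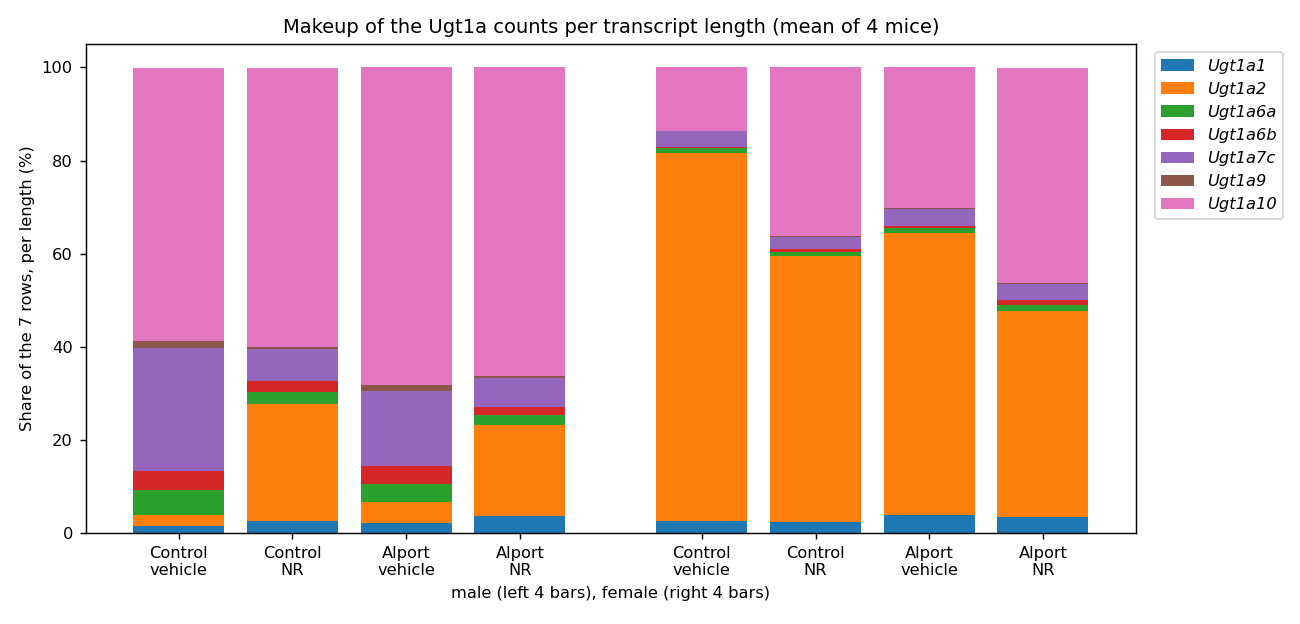
Stacked bars of the mean share (%) of each *Ugt1a* gene in the family per transcript length, for 8 groups of 4 mice. *Ugt1a2* fills 79.1% of the vehicle-treated female control bar and 2.43% of the male one.

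The difference between the sexes was largest for *Ugt1a2* among the 7 members. It lay at 2056, 2062, 2308 and 2382 CPM in vehicle-treated female controls and at 16.1, 17.0, 20.5 and 35.4 CPM in males, a log2 fold change (log2FC) of 6.66 ± 0.246 (SE; adjusted p = 6.83e-09). *Ugt1a1* lay at 62.8–85.3 CPM in females and 8.66–15.98 CPM in males (log2FC 2.41 ± 0.169, adjusted p = 1.52e-06). The female and male values of both genes did not overlap, nor did those of 32% of all genes tested, in either direction.

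Of the other 5 members, 4 were lower in females. *Ugt1a9* lay at 1.35–3.33 CPM in females and 5.28–17.7 CPM in males (log2FC −2.38 ± 0.353, adjusted p = 0.000451). *Ugt1a6b* (−1.82 ± 0.291, adjusted p = 0.000726) and *Ugt1a6a* (−0.87 ± 0.123, adjusted p = 0.000331) were also lower in females, with no overlap. *Ugt1a7c* was lower in females by the test (−1.32 ± 0.426, adjusted p = 0.0345) but its values overlapped, and the call was lost with robust shrinkage of the dispersions (adjusted p = 0.137), with DESeq2 (0.0537) and when any of 5 single mice was left out (female replicates 1, 3 and 4, male replicates 2 and 4), with the highest adjusted p, 0.118, without male replicate 4. *Ugt1a10* did not pass (−0.47 ± 0.203, adjusted p = 0.0963), and it passed without male replicate 4 (−0.65, adjusted p = 0.00926). In all, 6 of 7 members passed, 2 higher and 4 lower in females, against 31.7% of all genes tested in this comparison. The sum of the 7 rows was 2642–3003 CPM in females and 966–1086 CPM in males. Summed proximal tubule markers were lower in females (14640–18110 against 31860–33000 CPM), and 5 of 10 of them passed. *Kap* alone, a kidney gene under androgen control, had a mean of 907 CPM in females and 12470 in males, while *Lrp2*, *Cubn*, *Slc5a2* and *Slc5a12* had higher means in females. Their part in the differences between the sexes was not tested. Here and below, in bulk RNA a smaller number of cells of a type and less RNA per cell cannot be told apart.

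**Figure D3:**
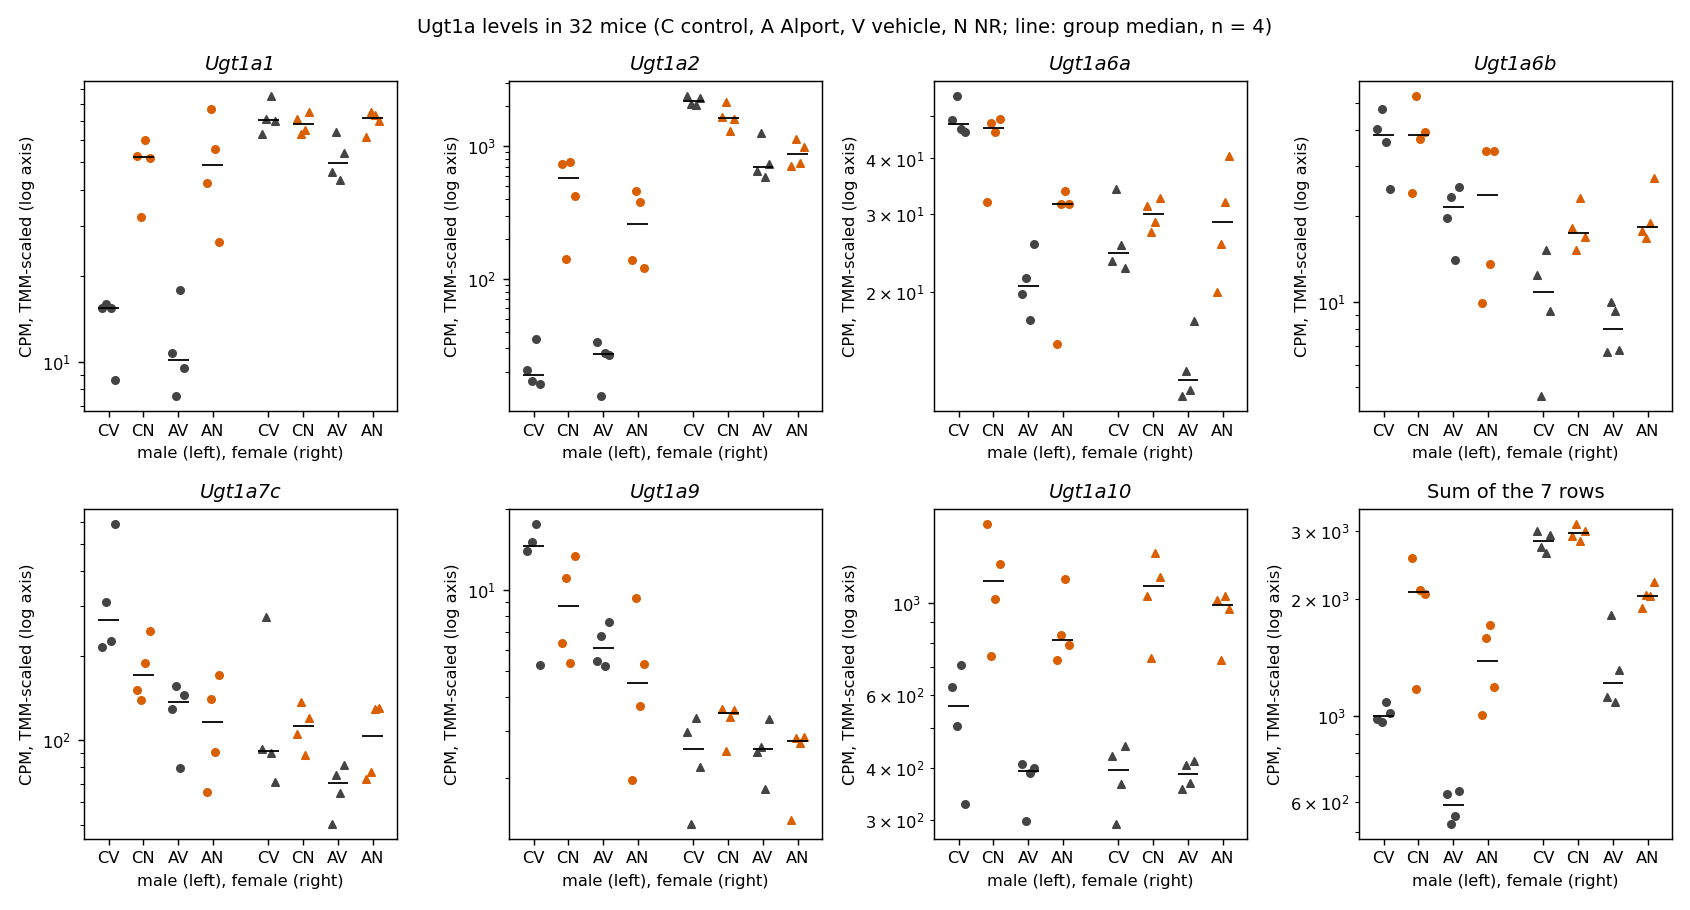
CPM after TMM scaling (log axis) of each member and of their sum in each of 32 mice, by group (C control, A Alport, V vehicle, N NR; males left as circles, females right as triangles, NR in orange; lines are medians of 4 mice). *Ugt1a2* of vehicle-treated males lies at 13.1–35.4 CPM and that of vehicle-treated females at 589–2382 CPM, and *Ugt1a10* of each NR-treated group lies above its vehicle-treated group.

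Part of the family was lower in Alport mice. *Ugt1a6a* fell in both sexes. It lay at 46.0–55.3 CPM in vehicle-treated male controls and 17.3–25.7 CPM in male Alport mice (log2FC −1.14 ± 0.114, adjusted p = 8.89e-06), and at 22.6–34.2 against 11.6–17.2 CPM in females (−0.93 ± 0.159, adjusted p = 0.000893). Neither sex overlapped between genotypes. Of all genes tested, 47.4% in males and 43% in females did not overlap either, in either direction.

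In males, *Ugt1a7c* (−1.31 ± 0.306, adjusted p = 0.00359), *Ugt1a9* (−0.97 ± 0.292, adjusted p = 0.0156) and *Ugt1a6b* (−0.77 ± 0.200, adjusted p = 0.00687) fell as well. *Ugt1a9* lay at 5.23–7.62 CPM in Alport mice, which overlapped the 5.28–17.7 CPM of controls, and it lost its call with limma-voom (adjusted p = 0.0551) and without vehicle-treated male control replicate 3 (0.0506). *Ugt1a10* had −0.45 ± 0.199 and did not pass (adjusted p = 0.0792), except with DESeq2 (0.0426), with the fit of all 32 mice (0.0413) and without vehicle-treated male control replicate 4 (−0.63, adjusted p = 0.00469). *Ugt1a1* and *Ugt1a2*, the members that are low in males, had log2FC of −0.19 ± 0.256 and 0.28 ± 0.286. Thus 4 of 7 members fell, against 51.0% of all genes called in either direction and 24.2% called lower. The median log2FC was −0.77 over the 7 members and −0.0013 over all genes.

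In females, *Ugt1a2* fell from 2056–2382 to 589, 648, 733 and 1253 CPM (−1.41 ± 0.217, adjusted p = 0.000506). *Ugt1a1* fell by 0.44 ± 0.133 (adjusted p = 0.0193), with overlap, and its call was lost without control replicate 3 or Alport replicate 1 or 3 (highest adjusted p = 0.0562) and with the fit of all 32 mice (0.122). *Ugt1a10* stayed within 356–415 CPM in Alport mice and 293–451 CPM in controls (0.05 ± 0.129, 95% confidence interval −0.24 to 0.33). *Ugt1a7c* had −0.92 and did not pass (adjusted p = 0.0685), except with the fit of all 32 mice (0.0399) and without vehicle-treated female control replicate 4 (−1.12, adjusted p = 0.0331). With *Ugt1a6a*, 3 of 7 members fell, against 45.8% of all genes called and 21.8% called lower. The median log2FC was −0.44 over the members and −0.000835 over all genes.

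The sex by genotype interaction was called for no member, against 0.532% of all genes (27 higher and 59 lower, or 28 and 24 with RLE size factors). Nearest was *Ugt1a2* (−1.71 ± 0.406, adjusted p = 0.0761), which passed with DESeq2 (adjusted p = 0.0341) and, among vehicle-treated mice, without female Alport replicate 2 (0.0243), male Alport replicate 2 (0.0369) or male control replicate 3 (0.0246). Summed proximal tubule markers also fell, from 31860–33000 to 10050–16690 CPM in males and from 14640–18110 to 6318–10490 CPM in females. Of these markers 10 of 10 fell in males and 8 of 10 in females, where *Slc7a13* rose. Of 8 markers of loop of Henle, distal tubule and collecting duct, 5 fell in males and 4 in females. In the same mice 6 of 6 immune markers rose in males and 5 of 6 in females, and 5 of 5 fibroblast markers in both sexes. Podocyte markers that rose were 5 of 5 and 4 of 5, and endothelial markers 4 of 5 and 3 of 5. Of all genes, 26.8% in males and 24% in females were called higher, and 24.2% and 21.8% lower. Summed immune markers went from 20.7–27.7 to 150.6–199.3 CPM in males and from 23.8–52.1 to 120.6–215.4 CPM in females. The part of these shifts in the fall of the *Ugt1a* rows was not tested.

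With NR, *Ugt1a10* rose in both sexes of control mice and in female Alport mice. In female controls it went from 293–451 to 738–1322 CPM (log2FC 1.46 ± 0.170, adjusted p = 0.00124). In female Alport mice it went from 356–415 to 731–1042 CPM (1.29 ± 0.136, adjusted p = 0.0073). In male controls the vehicle-treated mice lay at 327–710 CPM and the NR-treated mice at 747–1556 CPM (1.08 ± 0.260, adjusted p = 0.044). That last call was lost with robust shrinkage (adjusted p = 0.0618), with limma-voom (0.051), without any 1 of the 4 vehicle-treated mice or NR-treated replicate 1 or 3 (highest 0.132), and without the 2 libraries of low *Col4a3* (log2FC 0.87, adjusted p = 0.215). In male Alport mice *Ugt1a10* went from 298–409 to 729–1141 CPM and did not pass (1.22 ± 0.195, adjusted p = 0.306). In each of the 4 comparisons the lowest NR-treated mouse was above the highest vehicle-treated one. Of all genes tested, 14.6% in female controls, 9.22% in female Alport mice, 13.4% in male controls and 3.21% in male Alport mice did not overlap, in either direction.

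*Ugt1a2* and *Ugt1a1* rose with NR in male controls. *Ugt1a2* lay at 142, 418, 733 and 756 CPM in NR-treated mice against 16.1–35.4 CPM on vehicle, a 23.2-fold rise (log2FC 4.54 ± 0.514, adjusted p = 0.00264). *Ugt1a1* rose 3.55-fold, from 8.66–15.98 to 32.1–59.7 CPM (1.83 ± 0.225, adjusted p = 0.00429). Without the 2 libraries of low *Col4a3* the log2FC were 3.65 (adjusted p = 0.00774) and 1.59 (adjusted p = 0.0338). For *Ugt1a2* the highest NR-treated male control was below every vehicle-treated female control. Together with *Ugt1a10*, 3 of 7 members rose in male controls, against 4.53% of all genes called and 3.07% called higher. In the same group the summed proximal tubule markers were at 14450–28030 CPM against 31860–33000 on vehicle, with the mean of *Kap* at 4768 against 12470 CPM. Of the 10 markers 1 passed (*Slc5a2*, lower), with a median log2FC of −0.405 over the 10. There 5 of 5 endothelial and 3 of 5 fibroblast markers rose, and the part of these shifts was not tested.

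In male Alport mice *Ugt1a2* lay at 121, 139, 382 and 460 CPM on NR and at 13.1–33.6 CPM on vehicle (3.43 ± 0.503, adjusted p = 0.252). *Ugt1a1* lay at 26.3–76.6 against 7.59–17.8 CPM (2.12 ± 0.359, adjusted p = 0.306). No member and 0% of all genes passed edgeR's test there, with 785 genes at an unadjusted p under 0.05. limma-voom called 0 as well. DESeq2 called 62 genes and 3 members (*Ugt1a1*, *Ugt1a2* and *Ugt1a10*), a fit of all 32 mice called 88 genes and the same 3 members, and edgeR called these 3 without NR-treated male Alport replicate 1. That mouse held the lowest summed *Ugt1a* level (1002 CPM) and the lowest *Ugt1a10* (729 CPM) of its group, while replicate 4 held the lowest *Ugt1a1* and *Ugt1a2*. With 1 mouse left out, genes called in this comparison ranged from 0 to 380. Summed proximal tubule markers lay at 3782–19290 CPM on NR and 10050–16690 CPM on vehicle. Fibroblast markers lay at 296–1345 CPM on NR and 663–1064 CPM on vehicle, and immune markers at 64.7–289.7 and 150.6–199.3 CPM. The part of this spread in the *Ugt1a* values was not tested.

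In females *Ugt1a2* and *Ugt1a1* did not pass edgeR's test. With NR their log2FC were −0.40 ± 0.125 (adjusted p = 0.0785) and −0.09 ± 0.0931 in controls, and 0.15 ± 0.256 and 0.44 ± 0.132 (adjusted p = 0.174) in Alport mice. *Ugt1a2* passed as lower in female controls with DESeq2 (−0.40, adjusted p = 0.0144) and without NR-treated replicate 2 (−0.54, adjusted p = 0.00989). *Ugt1a10* was the 1 member of 7 that rose in female controls, against 6.18% of all genes called and 3.91% called higher. In female Alport mice *Ugt1a6b* rose as well, from 6.65–9.95 to 16.7–27.2 CPM (1.31 ± 0.199, adjusted p = 0.0205), although its call was lost without NR-treated replicate 3 or vehicle-treated replicate 1, 3 or 4 (highest adjusted p = 0.0857). *Ugt1a6a* went from 11.6–17.2 to 20.0–40.6 CPM there with no overlap and did not pass (1.14 ± 0.217, adjusted p = 0.0612), although it passed with DESeq2 (0.000119), with the fit of all 32 mice (0.00354), without the low-count filter (0.0309), with the replicate number as a block (0.0395) and without NR-treated replicate 1 (0.0232). *Ugt1a10* and *Ugt1a6b*, 2 of 7 members, compare with 0.477% of all genes called and 0.388% called higher.

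**Figure D4:**
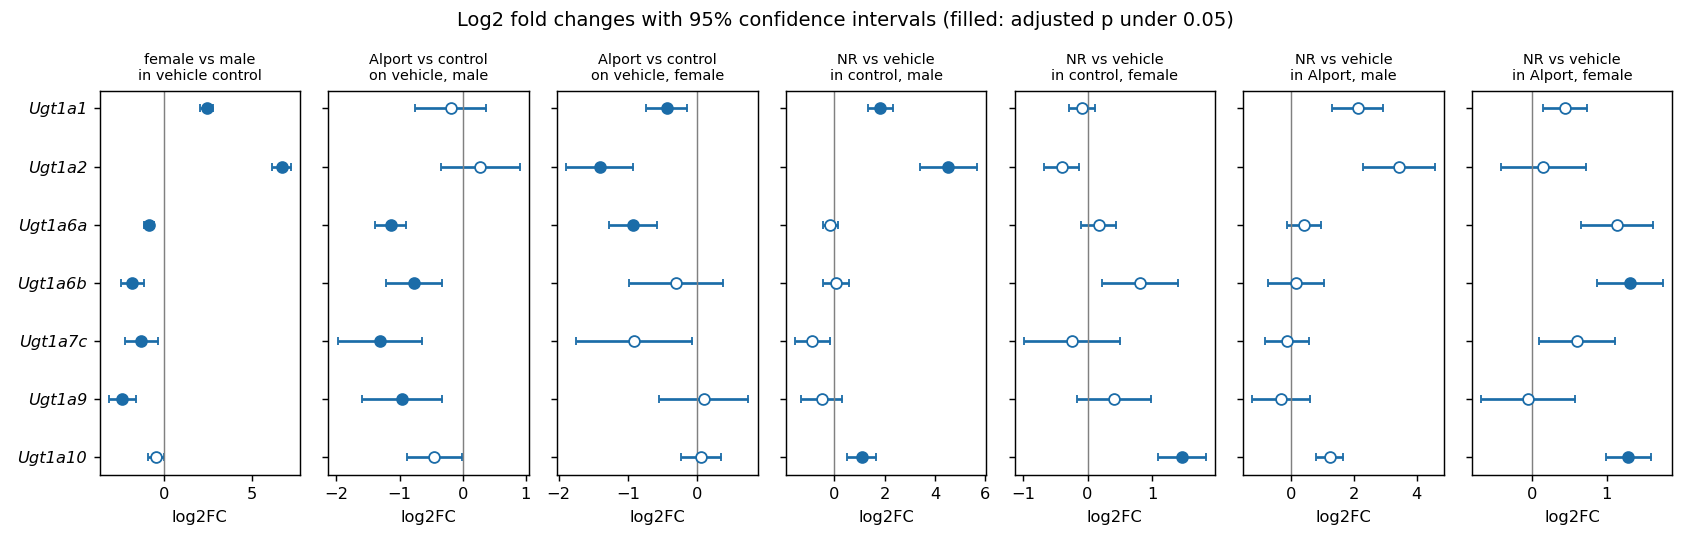
Log2FC of the 7 members in 7 comparisons with 95% confidence intervals, 4 mice per group, each panel on its own axis; filled points have an edgeR adjusted p under 0.05. *Ugt1a10* lies right of 0 in all 4 NR panels, while *Ugt1a2* has 4.54 in male and −0.40 in female controls.

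The response to NR differed between the sexes for *Ugt1a1* and *Ugt1a2* in control mice. The sex by NR interaction was −4.93 ± 0.534 for *Ugt1a2* (adjusted p = 0.00072) and −1.91 ± 0.254 for *Ugt1a1* (adjusted p = 0.00417). These 2 of 7 members compare with 0.683% of all genes called. Both calls held without the 2 libraries of low *Col4a3* (−4.05, adjusted p = 0.000922, and −1.68, adjusted p = 0.039). For *Ugt1a10* the interaction was 0.39 ± 0.339 with a 95% confidence interval of −0.33 to 1.10. In Alport mice the values were −3.31 ± 0.586 (*Ugt1a2*, adjusted p = 0.651) and −1.71 ± 0.398 (*Ugt1a1*, adjusted p = 1), where edgeR and limma-voom called 0% of all genes and 363 had an unadjusted p under 0.05. DESeq2 called 1 gene there, *Ugt1a2* itself (adjusted p = 5.97e-05). The NR by genotype interaction was called for no member and for 0% of genes in males and 0% in females, with edgeR and 1398 and 1521 genes at an unadjusted p under 0.05. DESeq2 called 20 and 30 genes, the fit of all 32 mice 1 and 0, limma-voom 0 in both, and none of these was a member.

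The sum of the 7 rows varied less than its main parts in vehicle-treated male controls. Its coefficient of variation there was 5.27%, against 52.4% for *Ugt1a7c* and 30.7% for *Ugt1a10*. Replicate 4 of that group held 591 CPM of *Ugt1a7c* and 327 CPM of *Ugt1a10*, while the other mice held 215–311 and 505–710 CPM, and its sum of 1019 CPM lay among theirs. Vehicle-treated female control replicate 2 stood apart in the same way, with 274 CPM of *Ugt1a7c* against 71.1–93.0 CPM in the other mice and the lowest *Ugt1a10* (293 CPM). The sum did not vary less than its main parts in every group. In vehicle-treated female Alport mice its coefficient of variation was 25.5%, against 7.46% for *Ugt1a10* and 37.7% for *Ugt1a2*. In NR-treated male Alport mice it was 24.5%, against 20.8% for *Ugt1a10* and 62.1% for *Ugt1a2*. Over the within-group deviations of 32 mice, the correlation of *Ugt1a7c* and *Ugt1a10* was r = −0.387 (rho = −0.282), that of *Ugt1a6a* and *Ugt1a7c* 0.618 (rho = 0.652), and that of *Ugt1a1* and *Ugt1a2* 0.728 (rho = 0.673). *Ugt1a6b* and *Ugt1a9*, with first exons 59.7% identical, had 0.726 (rho = 0.687). *Ugt1a6a* and *Ugt1a6b*, with first exons 95.1% identical, had 0.39 (rho = 0.369). Other pairs are not listed here. These are descriptions over mice whose rows share exons. The part of read assignment was not tested.

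The 7 rows were also added up before the fit, so that the division of reads among them no longer matters. If reads of the shared exons were dropped, the sum would still weight members by their unique sequence, which was not tested. The log2FC of the sum was 1.51 for female against male controls, and −0.70 and −1.04 for Alport disease in males and females. For NR it was 0.97 and 0.06 in male and female controls. In Alport mice it was 1.22 for NR in males and 0.63 in females. In female controls the sum with NR was 1.04-fold that on vehicle, while *Ugt1a10* rose 2.76-fold and *Ugt1a2* lay at 0.757 of its vehicle level.

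**Figure D5:**
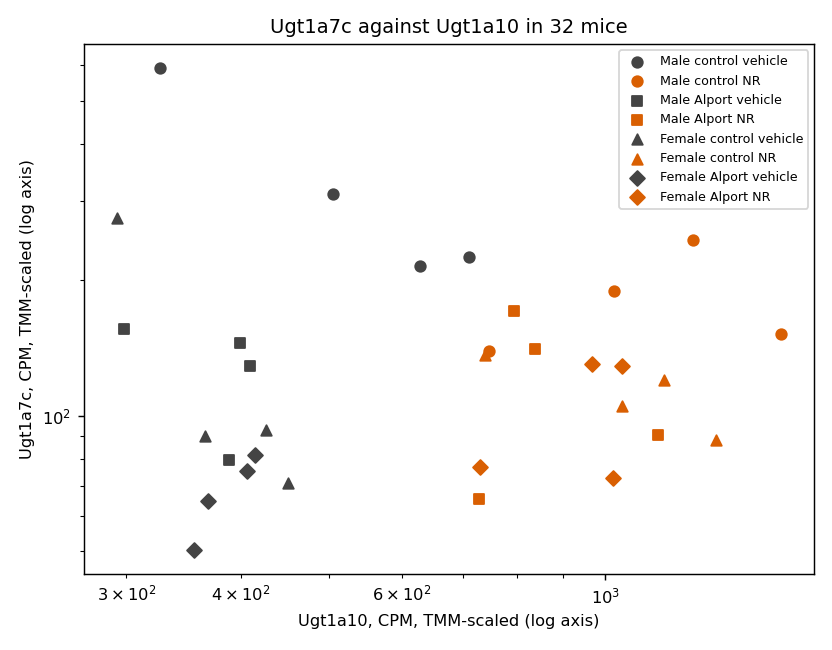
*Ugt1a7c* against *Ugt1a10* in CPM after TMM scaling (both log axes) in 32 mice, by group. The vehicle-treated male control with 591 CPM of *Ugt1a7c* has the lowest *Ugt1a10* of its group (327 CPM).

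The 250 bases before the RefSeq start are printed for *Ugt1a10*, *Ugt1a2* and *Ugt1a1*, the members that passed with NR in control mice, and for *Ugt1a9*, whose stretch was 69.2% identical to that of *Ugt1a10*. They come from RefSeq (GRCm38.p6), which matched 6 of 7 members, and *Ugt1a6b* was not among them. For *Ugt1a6a* the RefSeq window (chr1:88134559-88134808) lies upstream of the first exon given above and does not reach it. They are on the forward strand, in lower case with matches to the motifs named below in capitals.
*Ugt1a10* (chr1:88055161-88055410): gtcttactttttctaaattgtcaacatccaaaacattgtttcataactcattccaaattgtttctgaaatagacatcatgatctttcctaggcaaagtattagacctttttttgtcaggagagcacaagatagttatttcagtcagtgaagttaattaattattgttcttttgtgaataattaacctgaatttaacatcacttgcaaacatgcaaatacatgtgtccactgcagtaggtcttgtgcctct
*Ugt1a9* (chr1:88070529-88070778): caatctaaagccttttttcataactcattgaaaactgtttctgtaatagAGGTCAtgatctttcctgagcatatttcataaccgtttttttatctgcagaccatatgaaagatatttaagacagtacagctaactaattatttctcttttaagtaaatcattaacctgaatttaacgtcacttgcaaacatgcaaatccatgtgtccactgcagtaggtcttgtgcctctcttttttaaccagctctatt
*Ugt1a2* (chr1:88200361-88200610): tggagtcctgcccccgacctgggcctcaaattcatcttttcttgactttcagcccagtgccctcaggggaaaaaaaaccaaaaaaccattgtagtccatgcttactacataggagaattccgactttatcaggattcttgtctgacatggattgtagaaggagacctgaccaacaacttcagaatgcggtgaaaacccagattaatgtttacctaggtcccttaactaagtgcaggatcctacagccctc
*Ugt1a1* (chr1:88211709-88211958): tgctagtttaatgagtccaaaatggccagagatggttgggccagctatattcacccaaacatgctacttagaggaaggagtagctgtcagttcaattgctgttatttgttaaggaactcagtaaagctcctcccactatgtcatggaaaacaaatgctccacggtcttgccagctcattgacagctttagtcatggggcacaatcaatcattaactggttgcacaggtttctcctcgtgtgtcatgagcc

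Motifs were searched on both strands. AGGTCA, the core of nuclear receptor sites, was found in *Ugt1a9* and *Ugt1a7c* and in 14.0% of 32851 promoters of the same length. TTCNNNGAA, the core of STAT sites, was found in *Ugt1a6a* and in 7.02%. The core of the aryl hydrocarbon receptor site (GCGTG, 28.2% of promoters), that of the antioxidant response element (TGACNNNGC, 10.2%) and TATAAA (12.4%) matched none of the 6. No match overlapped another. A match is a description of letters in this window and no evidence of binding.

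The other UDP-glycosyltransferases were 15 genes, *Ugt1a5* and *Ugt1a8* among them, of which 10 passed the low-count filter in each comparison of 2 groups. In female against male controls 1 was higher (*Ugt2b34*, 2.65) and 7 were lower, against 15.9% of all genes called higher and 15.8% called lower. *Ugt2b37* (log2FC −6.86), *Ugt2b38* (−3.95) and *Ugt2b5* (−2.04), enzymes that conjugate steroids and other substrates, and *Ugt3a1* (−1.07) were all lower in females, opposite to *Ugt1a2*. In Alport disease 6 fell in males, against 51.0% of all genes called and 24.2% called lower. In females 3 rose and 3 fell, against 45.8% called. *Ugt2b37* had −0.61 in males and 3.08 in females. The sex by genotype interaction was called for 4 of the 10, *Ugt2b37* (3.65, adjusted p = 0.000138), *Ugt2b38*, *Ugt2b5* and *Ugt8a*, against 0.532% of all genes. With NR, *Ugt2b38* fell in male controls (−1.52, adjusted p = 0.0405), against 1.46% of all genes called lower. Of the 10, 6 lay below vehicle there without overlap and 1 above, against 13.4% of all genes in either direction. *Ugt2b37* did not pass there, at 240–308 CPM on vehicle and 8.06–105 CPM on NR. *Ugt2b5* (1.90, adjusted p = 0.0123) and *Ugt2b34* (0.59) rose in female controls, against 3.91% called higher. *Ugt2b34* (0.97) rose in female Alport mice, against 0.388%. *Ugt2b34*, *Ugt8a*, *Akr1a1*, *Nr1i3*, *Tiparp* and the single proximal tubule and fibroblast markers were named after their values were seen.

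Genes of UDP-glucuronate supply were 6. In Alport disease 1 rose and 4 fell in males, against 26.8% of all genes called higher and 24.2% called lower. In females 0 rose and 3 fell, against 24% and 21.8%. With NR, 2 rose in female controls, against 3.91% of all genes called higher. *Ugp2*, which makes UDP-glucose, fell in Alport mice of both sexes (−0.56 and −0.40), as did *Slc35d1* (−0.38 and −0.54), which carries UDP-glucuronate into the endoplasmic reticulum. *Ugdh*, which oxidizes UDP-glucose to UDP-glucuronate, fell in male Alport mice (−0.35, adjusted p = 0.0299) and rose with NR in female controls (0.77 ± 0.113, adjusted p = 0.00332). In female Alport mice *Ugdh* had 1.02 ± 0.210 with NR and did not pass (adjusted p = 0.0787).

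Glucuronides leave the cell through ABC transporters, and *Gusb* splits them again. *Abcc4* rose with NR in male controls (2.12 ± 0.294, adjusted p = 0.00766), female controls (0.86 ± 0.138, adjusted p = 0.00532) and female Alport mice (1.50 ± 0.207, adjusted p = 0.0147). *Abcc3* followed the direction of *Ugt1a2* by sex, with 31.6 CPM or more in vehicle-treated female controls and a log2FC of 4.92 against males. It rose with NR in male controls (3.41 ± 0.322, adjusted p = 0.000933), and its sex by NR interaction was −2.79 (adjusted p = 0.0127). In male Alport mice *Abcc3* rose (2.85 ± 0.245, adjusted p = 2.66e-06), where *Ugt1a2* had 0.28. *Abcc2* fell in Alport mice of both sexes (−0.41 and −0.70), and *Gusb* rose in both (0.51 and 0.54).

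Of 7 genes of glucuronate catabolism, 6 fell in Alport mice of each sex, *Miox* among them (−1.10 and −0.96), which opens inositol to glucuronate, against 24.2% (males) and 21.8% (females) of all genes called lower. With NR, 1 rose in female controls (*Akr1a1*) and none passed in the other NR comparisons. Of 4 genes from heme to bilirubin, the substrate of UGT1A1, 2 rose with NR in male controls, against 3.07% of all genes called higher. They were *Hmox1* (0.78, adjusted p = 0.0488) and *Blvrb* (0.73, adjusted p = 0.0202). In female Alport mice they had 1.27 and 0.72 and did not pass (adjusted p = 0.0725 and 0.0599). In Alport disease 1 of the 4 rose and 1 fell in males, and 2 fell in females, against 51.0% and 45.8% of all genes called.

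Among 10 transcription factors known to act on *Ugt1a* genes, *Ppara* (−0.94 and −1.14) and *Hnf4a* (−0.83 and −0.81) fell in Alport males and females, and *Ahr* rose (0.92 and 0.39). *Nfe2l2*, which encodes NRF2, passed in none of the 7 comparisons of 2 groups (−0.10 to 0.18). Between the sexes, 4 of the 10 were higher and 2 lower in females, against 15.9% of all genes called higher and 15.8% called lower. *Nr1i3*, which encodes the xenobiotic receptor CAR, was among those higher in females (1.73, adjusted p = 0.00266). It was the 1 factor that rose with NR in male controls (2.23, adjusted p = 0.0175), against 3.07% of all genes called higher. In female controls *Nr1i3* had 0.53 with NR. *Ppara* (−0.45) fell with NR in female controls. Of 10 NRF2 targets, 3 rose with NR in male controls, 4 in female controls and 2 in female Alport mice, and none fell, against 3.07%, 3.91% and 0.388% of all genes called higher. In Alport disease 1 rose and 4 fell in males, where 51.0% of all genes were called and 24.2% called lower. In females 6 fell, where 45.8% were called and 21.8% called lower. *Nqo1* (1.42, 1.31 and 2.42) and *Cbr1* (3.22, 1.17 and 2.26) rose in all 3 NR comparisons, while *Gclc*, the catalytic subunit of glutathione synthesis, passed in none of the 4 NR comparisons. In male Alport mice no NRF2 target passed with NR, where *Cbr1* had 2.47 and *Nqo1* 1.46. Of 6 targets of the aryl hydrocarbon receptor 4 were tested, and *Cyp1b1* rose with NR in male controls (1.12, adjusted p = 0.0243). It was higher in Alport than in control mice of both sexes (2.50 and 1.82). *Tiparp* fell in male Alport mice (−0.28, adjusted p = 0.00902) and was lower in females than in males (−0.40, adjusted p = 0.00368). *Cyp1a1* passed in none of the 7.

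The genes whose within-group deviations over 32 mice were most like those of the summed *Ugt1a* level were *Cox7a2l* (r = 0.812), *Defb1* (0.786), *Gm10639* (0.782), *Mgst3* (0.773) and *Prodh2* (0.769), out of 16462 genes. Over the 8 group means they were *Slc16a10* (r = 0.986), *Kctd6* (0.985), *Abhd6* (0.983), *Pgap3* (0.981) and *Akr1c19* (0.978). These are the highest of many values and are given as descriptions.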

How the data were processed

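Kidney cortex RNA of 32 mice was sequenced, 1 library per mouse. The authors processed the reads with BioJupies and deposited counts per gene symbol, and also log10(CPM + 1) values, which equalled those computed from the counts (largest difference 8.88e-16). The build in the submitters' processing notes is mm10. The aligner, the strand and the rule for reads that match several genes are not given in the sources used here. The members, lists and tests were chosen with earlier results of these data known.

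Each comparison was fitted on its own mice with the quasi-likelihood F test of edgeR 4.0.16 under R 4.3.3. Genes were kept by filterByExpr (minimum count 10) and libraries scaled by TMM. Adjusted p-values are Benjamini-Hochberg values over all genes kept, called at 0.05. SE is the absolute log2FC divided by the square root of F. The first fit used edgeR's default shrinkage and the library sizes after the filter. Robust shrinkage and library sizes before the filter were then tried because they gave gene counts nearer to an earlier account of these data, and the results of both were seen. The first fit is the one reported, and the other settings are given as alternatives with the calls they change.

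Other alternatives were DESeq2 1.42.0, limma-voom (limma 3.58.1), 1 fit of all 32 mice, RLE size factors, other low-count filters, a replicate block, summed rows and each mouse left out. The code was tested on simulated counts. No 2 libraries of a group were alike within sampling noise (48 pairs, lowest chi-square over its degrees of freedom 7.56). Named genes were all 7 members, a fixed list of pathway genes (1 of which is not reported here), the 5 genes most like the summed level in each of 2 measures, and *Col4a3*. Exons came from GENCODE vM21 and promoters from RefSeq.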

Additional observations from a re-analysis of the deposited data

Results flagged for a closer look

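In 5 of 56 sets of 4 mice (7 members in 8 groups), 1 mouse lay far from the other 3 on the log2 scale, as judged by its gap to the nearest mouse over the range of the group (Dixon's test). Chance gives about 1 in 20 such sets. *Ugt1a1* of vehicle-treated male control replicate 4 was low (8.66 CPM against 15.4–15.98, ratio 0.94). *Ugt1a6a* was low in NR-treated male control replicate 1 (31.8 against 45.8–49.1 CPM, 0.84) and in NR-treated male Alport replicate 1 (15.3 against 31.6–33.9 CPM, 0.912). *Ugt1a9* was low in NR-treated female Alport replicate 1 (1.39 against 2.70–2.85 CPM, 0.928). *Ugt1a10* was low in vehicle-treated male Alport replicate 2 (298 against 389–409 CPM, 0.838).

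The effect of NR differed between the sexes of control mice by edgeR's interaction test for *Ugt1a1* (−1.91) and *Ugt1a2* (−4.93). The log2FC with NR were 1.83 and 4.54 in males and −0.09 and −0.40 in females.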

How the results depend on the processing

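Robust shrinkage, library sizes before the filter, summed rows of *Ugt1a7c* and *Ugt1a10*, and the fit without 2 NR-treated male control libraries were added after results were seen. Of 84 member values (7 genes in 12 comparisons), robust shrinkage changed the call of 2, *Ugt1a10* with NR in male controls (adjusted p = 0.0618) and *Ugt1a7c* between the sexes (0.137). Library sizes before the filter, RLE size factors and a CPM filter changed the call of 0. DESeq2 changed 9, the fit of all 32 mice 7, limma-voom 5, the replicate block 5 and no low-count filter 1, counting changes of sign. The number of members called went from 0 to 3 for NR in male Alport mice with DESeq2 and to 3 with the fit of all 32 mice. It went from 1 to 2 for NR in female controls with DESeq2 and with the block. It went from 0 to 1 with DESeq2 for the sex by genotype interaction and for the sex by NR interaction in Alport mice.

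Signs turned only for values that did not pass. For NR in male Alport mice *Ugt1a6b* had −0.092 with limma-voom and −0.018 with the replicate block. For the NR by genotype interaction in males *Ugt1a6b* and *Ugt1a9* had −0.15 and −0.16 with limma-voom, and −0.18 and −0.25 without the 2 libraries. With each mouse left out, log2FC ranged for Alport in females from −0.12 to 0.28 (*Ugt1a9*) and −0.068 to 0.13 (*Ugt1a10*). For NR they ranged in male Alport mice from −0.12 to 0.39 (*Ugt1a6b*) and −0.38 to 0.066 (*Ugt1a7c*), in female Alport mice from −0.19 to 0.14 (*Ugt1a9*), in male controls from −0.14 to 0.22 (*Ugt1a6b*), and in female controls from −0.15 to 0.0036 (*Ugt1a1*) and −0.45 to 0.40 (*Ugt1a7c*). The sex by genotype interaction ranged from −0.44 to 0.022 (*Ugt1a1*) and −0.058 to 1.005 (*Ugt1a7c*). The NR by genotype interaction in males ranged from −0.0099 to 0.57 (*Ugt1a1*), −0.19 to 0.32 (*Ugt1a6b*), −0.29 to 0.45 (*Ugt1a9*) and −0.047 to 0.31 (*Ugt1a10*). The sex by NR interaction in Alport mice ranged from −0.041 to 0.73 (*Ugt1a9*) and −0.041 to 0.22 (*Ugt1a10*). Members called with a mouse left out numbered 3 to 5 for Alport in males and 2 to 4 in females, 0 to 3 for NR in male and 1 to 3 in female Alport mice, 2 to 3 in male and 1 to 2 in female controls, 5 to 6 between the sexes, 0 to 1 for both the sex by genotype and the male NR by genotype interaction, and 2 to 2 for the sex by NR interaction in controls. The cause of these changes was not tested.

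The paper states that litters were balanced over the treatment groups, and the labels do not say whether replicate numbers pair littermates. Deviations of mice with the same number correlated over 0.1 in 5 of 28 pairs (−0.167 to 0.261), which cannot exclude pairing. With replicate numbers as a block, *Ugt1a10* in NR-treated male controls (adjusted p = 0.059) and *Ugt1a6b* in NR-treated female Alport mice (0.0908) lost their calls. *Ugt1a6a* in NR-treated female Alport mice (0.0395) and *Ugt1a6b* in NR-treated female controls (0.0393) gained one. Genes called for NR fell from 666 to 309 in male and from 924 to 371 in female controls, and for the sex by NR interaction in controls from 105 to 61.

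Other counts of genes moved too. For NR in female Alport mice 75 became 728 with DESeq2, 253 with the fit of all mice and 116 without the filter. For NR in male controls 666 became 1654 with DESeq2 and 96 without the 2 libraries, and in female controls 924 became 1493 and, with the fit of all mice, 18. Between the sexes 4756 became 2799 with the fit of all mice. The sex by genotype count of 86 became 260 (DESeq2), 46 (limma-voom), 5 (all mice) and 52 (RLE). The sex by NR count in controls of 105 became 504 (DESeq2), 7 (all mice) and 6 without the 2 libraries. The female NR by genotype count of 0 became 3 without the filter and 2 with the CPM filter. With 1 mouse left out, genes called for NR ranged from 74 to 1886 in male and 395 to 809 in female controls and from 0 to 380 in male and 9 to 166 in female Alport mice, and for the sex by NR interaction in controls from 22 to 677. *Ugt1a9* is limited by depth, with 31–358 counts a mouse.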
